A study of Mus musculus with 12 samples.

Results

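The 7 genes *Gabra2*, *Gabra3*, *Gabra4*, *Gabra5*, *Gabrb1*, *Gabrb2* and *Gabrg3*, which encode subunits of the GABA-A receptor, were taken by their symbols from the 55335 genes counted in single nuclei of the mouse cortex. Each symbol matched 1 row of the count tables. The family has 12 further subunit genes in the same tables, which served as a comparison list. The 12 mice were C57BL/6 animals of the MYT1L S710fsX line at 21 days after birth, 6 wild type (WT) and 6 heterozygous (Het) for a frameshift allele of *Myt1l*, with 3 males and 3 females of each genotype. All animals, WT included, had received AAV9 vectors with a hyPB transposase and a tdTomato reporter as pups. The dissected cortices were frozen, and the nuclei of all animals were barcoded on the same plates with a Scale Biosciences kit. The animals came from several litters, and the labels do not tie animals to litters.

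GABA-A receptors are pentameric chloride channels that open when GABA binds, and they carry most fast inhibition in the cortex. The usual receptor combines alpha and beta subunits with a gamma or delta subunit. GABA binds between beta and alpha, benzodiazepines bind between alpha and gamma, and the alpha subunit has much to do with where a receptor sits and how sensitive it is to GABA. MYT1L is a zinc finger transcription factor of neurons.

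The tables held 78743 barcodes, with 23425408 to 59947428 UMIs (counted molecules) per WT animal and 36293892 to 56950644 per Het animal. After limits on depth and doublets 33112 nuclei remained, 1551 to 4413 per animal, and no barcode occurred in more than 1 library. Nuclei were put in classes by their UMIs of listed marker genes, none of them a GABA-A receptor gene. The minimum UMIs, and the listed markers set aside, were chosen after marker levels of clusters were seen and before genotypes were compared. No broad class was met by 24.07% to 31.56% of nuclei in WT and 25.05% to 29.8% in Het animals, and most neurons met no subclass. The classes held 15999 glutamatergic and 5707 GABAergic nuclei. Within the glutamatergic class 1696 nuclei were L2/3 IT-like (intratelencephalic, upper layers), 1419 L4/5 IT-like, 607 L5 NP-like (near-projecting) and 2414 L6 CT-like (corticothalamic). Within the GABAergic class 1056 were Pvalb-like, 290 Sst-like, 295 Vip-like, 358 Lamp5-like and 522 MSN-like, with markers of striatal projection neurons. Glial classes were smaller, with 1608 oligodendrocyte, 467 OPC (oligodendrocyte precursor), 156 astrocyte and 134 microglia nuclei. Levels are in CPM, a gene's UMIs summed over the nuclei of one animal and class, divided by all UMIs of that sum and scaled to the usual unit, and animals with fewer than 10 nuclei in a class were left out of it. L6 CT-like nuclei carried *Hs3st4* at 4982 CPM, *Foxp2* at 1145 CPM and *Tle4* at 703 CPM, whereas *Ntsr1* (13.4 CPM) and *Rprm* (11.9 CPM) of the same list were low. L4/5 IT-like nuclei needed 2 UMIs of 1 marker and rested mainly on *Rorb* (1098 CPM). *Whrn* (70.0 CPM), *Rspo1* (4.61 CPM) and *Scnn1a* (4.41 CPM) of that list were low, and *Il1rapl2* was set aside. Pvalb-like nuclei rested on *Btbd11*, *Cemip* and *Ank1*, since *Pvalb* itself reached 22.8 CPM.

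The members lie in clusters of the family on 4 chromosomes of mm10, at the positions of the GENCODE annotation of that build. *Gabra2* (chr5:70957597-71095849, minus strand), *Gabra4* (chr5:71569749-71658308, minus strand) and *Gabrb1* (chr5:71658113-72149037, plus strand) share chromosome 5. *Gabra4* and *Gabrb1* stand head to head and their annotated spans share 196 bases at the starts. *Gabra5* (chr7:57407672-57510059, minus strand) and *Gabrg3* (chr7:56716465-57387188, minus strand) lie 20483 bases apart on chromosome 7. Whether reads were counted by strand is not given in the sources used here, so values of the members, *Gabra5* above all, could hold reads from the opposite strand. *Gabrb2* (chr11:42419757-42629028, plus strand) lies 98684 bases from *Gabra6*, and *Gabra3* (chrX:72432681-72656848, minus strand) between *Gabre* and *Gabrq* on the X chromosome.

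The sequences before the starts of *Gabra4* and *Gabrb2* are shown because the account of genotype further on turns on these genes, of which *Gabra4* was called in 1 class and *Gabrb2* in none by edgeR. They are RefSeq sequences on GRCm38.p6, read 5′ to 3′ on the strand of the gene and kept clear of annotated exons of the family. The *Gabra4* stretch, chr5:71658364-71658558 on the minus strand, has a GC content of 63.6% and lies inside the span of *Gabrb1*. The *Gabrb2* stretch, chr11:42420951-42421200 on the plus strand, has a GC content of 36.8%. It is the window of 1 of 3 RefSeq starts of *Gabrb2*, all inside the GENCODE span of the gene, and the one that holds a match, while the windows of the other starts (chr11:42420190-42420439 and chr11:42420524-42420773) hold 0 matches. Capitals mark the letters AAGTT, the core that MYT1 family zinc fingers bind, found here in the reverse direction as AACTT.

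Gabra4: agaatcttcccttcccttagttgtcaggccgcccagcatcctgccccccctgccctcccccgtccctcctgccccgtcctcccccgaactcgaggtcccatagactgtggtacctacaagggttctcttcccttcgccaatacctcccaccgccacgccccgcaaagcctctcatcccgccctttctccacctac

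Gabrb2: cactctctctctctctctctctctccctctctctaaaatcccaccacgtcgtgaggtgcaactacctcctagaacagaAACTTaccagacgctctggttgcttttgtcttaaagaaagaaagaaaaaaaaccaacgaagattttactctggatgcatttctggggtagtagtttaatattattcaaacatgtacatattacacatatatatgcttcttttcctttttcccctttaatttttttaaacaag

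All 7 members had an entry in the promoter table, with 11 start sites in all. Of these, 5 held AAGTT on either strand in the 250 bases before the start, and of the 32851 windows of the same length over all genes 35.3% did. A match is a run of letters and not a measured site.

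Every member was measured in glutamatergic and in GABAergic nuclei, and the subunits divided differently between them. In glutamatergic nuclei the members ranged from 44.9 ± 6.14 CPM for *Gabra5* to 1113 ± 68.2 CPM for *Gabrb1* (SD, n = 12). In GABAergic nuclei they ranged from 62.5 ± 31.4 CPM for *Gabra5* to 1901 ± 278 CPM for *Gabrg3* (SD, n = 12). These CPM are not corrected for length, and long genes collect more counts in nuclear RNA, so the members were compared with each other per length. Per 100 kb of gene span in glutamatergic nuclei, *Gabra2* stood highest at 297 ± 30.2 CPM, followed by *Gabrb2* at 256 ± 20.97 CPM, *Gabrb1* at 227 ± 13.9 CPM and *Gabra4* at 218 ± 23.2 CPM. *Gabrg3* followed at 116 ± 5.24 CPM per 100 kb, and *Gabra5* (43.9 ± 5.99 CPM) and *Gabra3* (35.2 ± 4.94 CPM) came last. In GABAergic nuclei *Gabrb2* (317 ± 37.0 CPM per 100 kb) and *Gabrg3* (284 ± 41.4 CPM per 100 kb) led, and *Gabrb1* stood at 108 ± 13.4 CPM per 100 kb. Per kb of exon the order in glutamatergic nuclei was another, with *Gabrb2* at 84.2 ± 6.90 CPM and *Gabrb1* at 80.4 ± 4.93 CPM ahead of *Gabra2* at 53.8 ± 5.46 CPM.

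The difference between the main neuronal classes was tested with edgeR on both classes of each animal, with the animal as a block. Of 11008 genes tested 12.9% passed an adjusted p under 0.05 and a fold change of at least 2, and 2 of the 7 members did. *Gabrb1*, a beta subunit, was higher in glutamatergic nuclei, with a log2 difference of 1.12 ± 0.05 (SE; edgeR adjusted p = 2.37e-17). *Gabrg3*, a gamma subunit, was lower there, with a log2 difference of -1.24 (SE 0.06; edgeR adjusted p = 6.12e-16). The remaining members differed by less than 2-fold. *Gabra2* was higher in glutamatergic nuclei by 0.54 ± 0.08 and *Gabra4* by 0.26 ± 0.06 on the log2 scale, and both passed the adjusted p alone. *Gabrb2* (-0.26 ± 0.05) and *Gabra3* (0.15 ± 0.07) did so too, *Gabra3* with an edgeR adjusted p of 0.0472 that became 0.144 without TMM scaling, and *Gabra5* (-0.38 ± 0.20) did not. Among the other subunits of the comparison list *Gabrg1* and *Gabrd*, the subunit of many extrasynaptic receptors, were called lower in glutamatergic nuclei, with log2 differences of -1.74 ± 0.18 and -1.27 ± 0.10.

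**Figure D1:**
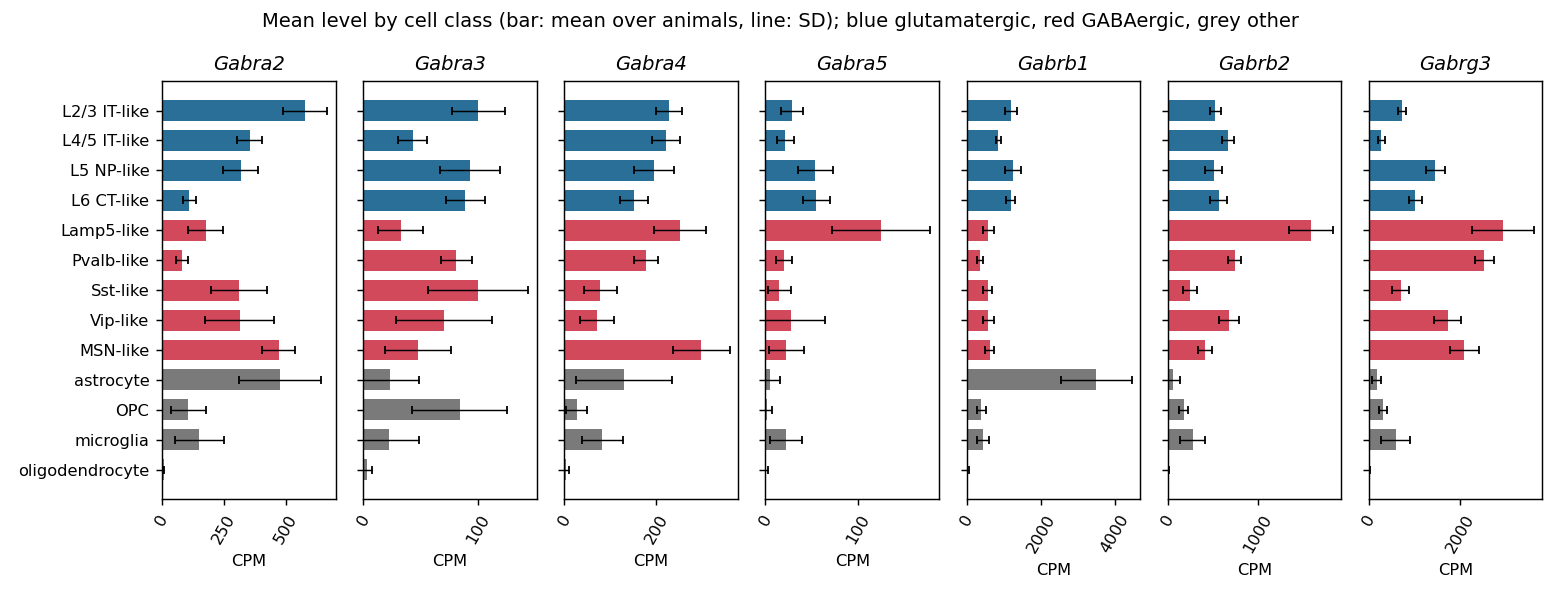
Mean CPM of the 7 subunit genes (one panel each, x axis in CPM) in 13 cell classes (y axis), with bars for the mean over animals and lines for the SD. *Gabrb1* is highest in astrocyte nuclei (3496 CPM), *Gabrb2*, *Gabrg3* and *Gabra5* in Lamp5-like nuclei, and all 7 genes are lowest in oligodendrocyte nuclei.

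Within these broad classes each subunit had its own order over 13 classes that share no nuclei. Neighbours in an order are said to differ beyond their spread where the gap of the means was at least the larger of their SDs. Classes further apart in an order can differ by more than that without any such step between neighbours. *Gabra2* encodes an alpha subunit common at the axon initial segment. It was highest in L2/3 IT-like nuclei at 577 ± 89.5 CPM (SD, n = 12), followed by astrocyte (477 ± 164 CPM, n = 8) and MSN-like nuclei (470.0 ± 67.0 CPM, n = 12), which did not differ beyond their spread. L6 CT-like (110.4 ± 25.0 CPM) and Pvalb-like nuclei (82.0 ± 23.8 CPM) held the lowest neuronal levels. L4/5 IT-like (354 ± 49.3 CPM) and L5 NP-like nuclei (318 ± 70.8 CPM) lay in between, and 3 of 12 pairs of neighbours differed beyond their spread, MSN-like and L4/5 IT-like, Sst-like and Lamp5-like, and Pvalb-like and oligodendrocyte nuclei.

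*Gabra3*, an alpha subunit prominent early in development, had no such steps. Its levels ran from 99.97 ± 22.9 CPM in L2/3 IT-like and 99.8 ± 43.4 CPM in Sst-like nuclei down to 32.6 ± 19.4 CPM in Lamp5-like nuclei among the neurons, and 0 of 12 pairs of neighbours differed beyond their spread. The gene was not flat, since L4/5 IT-like nuclei (43.0 ± 12.7 CPM) lay below L2/3 IT-like nuclei by more than either SD. *Gabra4*, the alpha subunit that often joins delta in extrasynaptic receptors, was highest in MSN-like nuclei (298 ± 62.1 CPM) and Lamp5-like nuclei (251 ± 56.1 CPM). The 4 glutamatergic classes lay between 228 ± 28.5 CPM in L2/3 IT-like and 152 ± 30.8 CPM in L6 CT-like nuclei, and Sst-like (78.4 ± 35.6 CPM) and Vip-like nuclei (71.4 ± 37.9 CPM) were the lowest neurons. Only the step from Vip-like to OPC nuclei exceeded the spread. *Gabra5*, which forms extrasynaptic receptors best known from the hippocampus, was highest in Lamp5-like nuclei at 125 ± 53.1 CPM, beyond the spread of the next class. L6 CT-like (55.1 ± 14.6 CPM) and L5 NP-like nuclei (54.0 ± 18.7 CPM) came next and did not differ from each other beyond their spread. All other classes were below 30 CPM.

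The beta subunits had opposite leaders. *Gabrb1* reached 3496 ± 959 CPM in astrocyte nuclei (SD, n = 8), far beyond the spread of the next class, L5 NP-like nuclei at 1254 ± 225 CPM. L5 NP-like, L2/3 IT-like (1199 ± 153 CPM) and L6 CT-like nuclei (1187 ± 126 CPM) formed a group without steps, and Pvalb-like nuclei were the lowest neurons at 364 ± 75.6 CPM. *Gabrb2*, a beta subunit of many synaptic receptors, was highest in Lamp5-like nuclei at 1586 ± 242 CPM, and Pvalb-like nuclei followed at 744 ± 71.2 CPM. Its lowest neuronal level was in Sst-like nuclei (247 ± 73.5 CPM), and astrocyte nuclei held 58.4 ± 74.1 CPM. *Gabrg3*, one of the less common gamma subunits, was also highest in Lamp5-like (2939 ± 678 CPM) and Pvalb-like nuclei (2529 ± 209 CPM), which did not differ from each other beyond their spread. It then fell in steps beyond the spread from Pvalb-like to MSN-like (2086 ± 317 CPM), from MSN-like to Vip-like (1728 ± 299 CPM), and from L5 NP-like (1458 ± 207 CPM) to L6 CT-like (1020.2 ± 144 CPM) and on to L2/3 IT-like nuclei (729 ± 86.6 CPM). L4/5 IT-like nuclei had the lowest neuronal level, 275 ± 82.6 CPM.

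Free RNA in the suspension can give UMIs in nuclei that do not transcribe a gene, and oligodendrocyte nuclei were taken as the comparison for it. All members were lowest there, from 0.990 CPM for *Gabra5* to 35.7 CPM for *Gabrb1*. Glial nuclei were kept only with few UMIs of the glutamatergic and GABAergic lists, so these levels do not measure free RNA in other classes. Microglia nuclei had higher levels, such as 592 ± 317 CPM of *Gabrg3* (n = 6), and at the same time 938 CPM of the L6 CT marker list and 95.7 CPM of the glutamatergic list. These few nuclei thus carried neuronal transcripts, and the levels of the members in them are given without reading expression from them. The part that neuronal RNA took in the astrocyte values was not tested. Beside them, the glutamatergic list was at 47.6 CPM and the L6 CT list at 480.2 CPM in astrocyte nuclei.

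Between glutamatergic classes, edgeR on L6 CT-like against L2/3 IT-like nuclei of the same animals called 10.2% of 6403 genes and 2 of the 7 members. *Gabra2* was lower in L6 CT-like nuclei, with a log2 difference of -2.37 (SE 0.06; edgeR adjusted p = 4.29e-39), and *Gabra5* was higher by 1.02 ± 0.16 (edgeR adjusted p = 7.08e-07). *Gabra4* differed by -0.63 ± 0.07 and *Gabrg3* by 0.49 ± 0.05 on the log2 scale, both short of 2-fold. *Gabrb1* differed by -0.0037 (SE 0.04; edgeR adjusted p = 0.961).

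The GABAergic classes were compared in the same way. In Pvalb-like against Sst-like nuclei of 11 animals, edgeR called 8.71% of 3032 genes and 4 of the 6 members tested, and *Gabra5* did not reach the minimum count. *Gabrg3* (1.85 ± 0.09), *Gabrb2* (1.56 ± 0.12) and *Gabra4* (1.18 ± 0.16) were higher in Pvalb-like nuclei, all on the log2 scale. *Gabra2* was lower there, with a log2 difference of -1.86 (SE 0.18; edgeR adjusted p = 6.61e-08). *Gabra3* differed by -0.37 ± 0.17 with an adjusted p of 0.0896, and *Gabrb1* by -0.65 ± 0.13, short of 2-fold.

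The genes whose mean log2 level over the 13 classes was most like that of each member were found among 10083 genes, leaving out members and markers. The closest were *Noct* (r = 0.929), *Arhgef17* and *Pitpnm2* for *Gabra2*, *Elavl4* (r = 0.921), *Castor2* and *Epha5* for *Gabra3*, and *Gm37728* (r = 0.969), *Lncpint* and *Sybu* for *Gabra4*. For *Gabra5* they were *A830018L16Rik* (r = 0.959), *Grin2a* and *Frmpd4*, and for *Gabrb1* *Gm45265* (r = 0.972), *Gpm6a* and *Cpe*. *Rims1* (r = 0.960), *Sh3rf3* and *Mir124a-1hg* were closest to *Gabrb2*, and *Sh3rf3* (r = 0.938), *Gm26691* and *Gm43874* to *Gabrg3*. Among the members themselves *Gabrb2* and *Gabrg3* had the most similar patterns (r = 0.90), and *Gabrb1* and *Gabrg3* the least (r = 0.42). The points of these correlations are 13 classes of the same libraries, several of them small.

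The comparison of genotypes asked which subunits differ in Het nuclei. The members were chosen with earlier results of these data known, so their counts and medians beside those of all genes do not test the set. *Myt1l* itself was counted at 1259 ± 79.7 CPM in WT and 1450 ± 80.0 CPM in Het L6 CT-like nuclei (SD, n = 6). Its log2 fold change was 0.18 ± 0.07 with an edgeR adjusted p of 0.306, and in glutamatergic nuclei it was 0.15 ± 0.06 with an adjusted p of 0.416. UMIs do not tell the frameshift allele from the intact one, so these levels do not check the genotype labels.

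In L6 CT-like nuclei one member, *Gabra4*, passed the test, and it was lower in Het animals. Of the 6668 genes tested in this class 0.360% were called, which took an adjusted p below 0.05 and a log2 fold change beyond 0.2 in either direction, and 0.135% were called lower in Het. The count for the members was 1 of 7. WT animals had 148 to 200.03 CPM of *Gabra4* (median 175), and Het animals had 104 to 159 CPM (median 126). The means were 175 ± 18.4 CPM in WT and 129 ± 21.2 CPM in Het (SD, n = 6). Het females 1 and 2 were lowest and Het female 3 was the one Het animal inside the WT range, so that 5 of 6 Het animals lay below every WT animal. The groups did not separate fully for any member in this class, as they did with Het below WT for 0.195% of all genes. The log2 fold change was -0.47 ± 0.11 (SE; edgeR adjusted p = 0.0303).

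This call was not firm. Without Het female 1 the adjusted p was 0.0967, without Het female 2 0.0910, without Het male 1 0.0562, without Het male 3 0.0547, without WT female 3 0.102 and without WT male 3 0.148, and leaving out each of the other 6 animals kept it. The fold change stayed between -0.55 and -0.41 over all 12 of these fits. It was also lost where doublets were kept (-0.44, adjusted p = 0.0588), with a stricter margin between classes (-0.48, adjusted p = 0.0967) and with large nuclei included (-0.26, adjusted p = 0.257), a setting that moved the value by more than 1.5 times. With large nuclei the class held 6384 nuclei, against 2414 in the main fit, so the call rests on the smaller part of the L6 CT-like nuclei. The log2 fold change was -0.41 within males and -0.53 within females, with adjusted p of 0.408 and 0.329 from 3 animals a genotype.

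**Figure D2:**
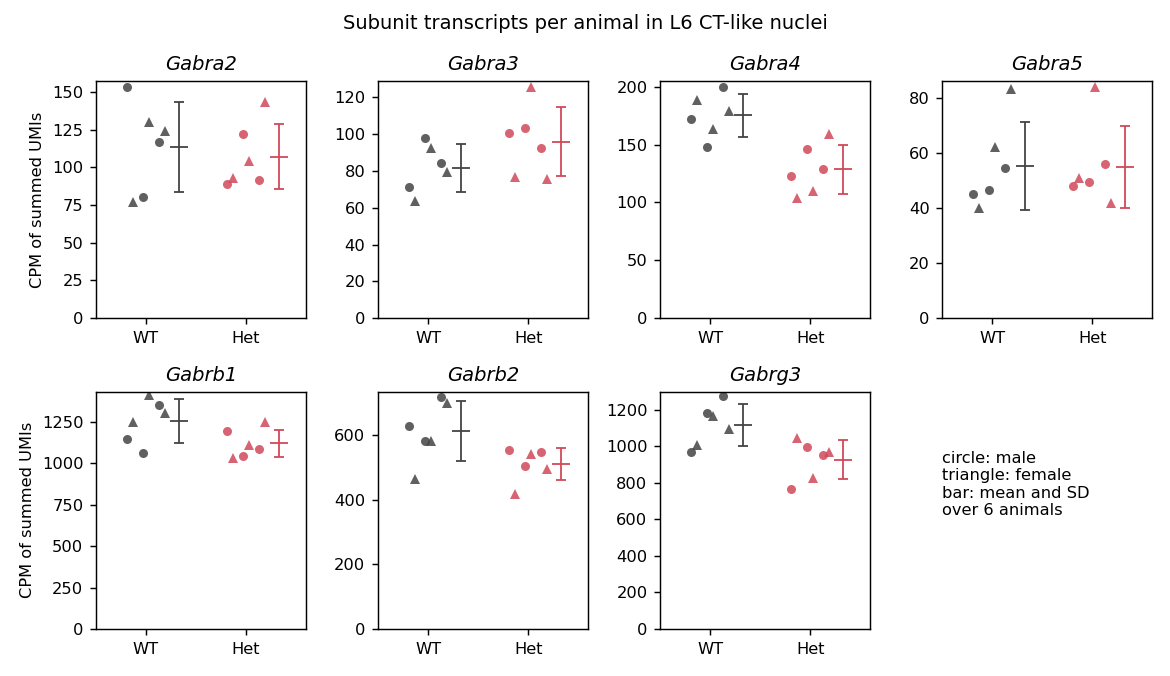
CPM of each subunit gene (y axis, starting at 0) in L6 CT-like nuclei of 6 WT and 6 Het animals, circles for males and triangles for females, with the mean and SD beside the points. For *Gabra4* 5 of 6 Het animals lie below the lowest WT animal, and for *Gabra2*, *Gabra3* and *Gabra5* the groups lie across each other.

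A further 3 members had unadjusted p under 0.05 in L6 CT-like nuclei without passing the adjusted threshold, all with negative fold changes, and 9.51% of all genes tested in this class had such a p. *Gabrg3* ranged from 968 to 1272 CPM in WT (median 1129) and from 768 to 1044 CPM in Het animals (median 961). All 6 Het animals were below the WT median and 3 were below every WT animal. Its log2 fold change was -0.30 ± 0.08 (edgeR adjusted p = 0.0660). *Gabrb2* ranged from 465 to 721 CPM in WT (median 606) and from 420 to 554 CPM in Het animals (median 524). WT female 1 was low for its group, and 5 of 6 WT animals were above every Het animal. The log2 fold change of *Gabrb2* was -0.31 ± 0.09 (edgeR adjusted p = 0.129). *Gabrb1*, the neighbour of *Gabra4*, ranged from 1062 to 1413 CPM in WT (median 1278) and from 1035 to 1247 CPM in Het animals (median 1099), with a log2 fold change of -0.20 ± 0.07 (edgeR adjusted p = 0.304).

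The groups overlapped widely for the other members. *Gabra2* had 114 ± 29.7 CPM in WT and 107 ± 21.6 CPM in Het animals (SD, n = 6), with a log2 fold change of -0.10 ± 0.14. *Gabra5* had 55.3 ± 15.8 CPM and 55.0 ± 14.9 CPM, with a log2 fold change of -0.12 ± 0.17. *Gabra3* was the one member with a positive value, 0.17 ± 0.13, from 81.6 ± 12.8 CPM in WT and 95.9 ± 18.7 CPM in Het animals. The median log2 fold change of the 7 members, chosen with earlier results known, was -0.20 in L6 CT-like nuclei. Over all 6668 genes it was -0.0018.

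Whether other cells or depth moved with genotype was checked within L6 CT-like nuclei. The summed level of every marker list overlapped between WT and Het animals. The list of striatal projection neurons, a class with more *Gabra4*, lay between 1054 and 1616 CPM in WT and between 1363 and 1538 CPM in Het animals, and none of its 7 markers was at 0. WT animals had 3339 to 3731 UMIs per L6 CT-like nucleus and Het animals 3612 to 3886. The part of these differences in the values above was not tested.

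Across all glutamatergic nuclei no member was called, against 0.181% of 13237 genes. Of the 7 members, chosen with earlier results known, 6 had negative fold changes, as did 52.8% of all genes. An unadjusted p under 0.05 was found for 3 of 7 members and 7.80% of all genes. *Gabrb2* separated the groups most clearly. It ranged from 537 to 622 CPM in WT animals (median 560) and from 479 to 526 CPM in Het animals (median 500.0). All 6 Het animals were thus below all 6 WT animals, as was the case for 0.151% of the genes tested in this class. The log2 fold change of *Gabrb2* was -0.21 ± 0.05 (edgeR adjusted p = 0.0985). DESeq2 gave -0.20 with an adjusted p of 0.00924, and called it. *Gabra2* ranged from 379 to 471 CPM in WT (median 458) and from 351 to 408 CPM in Het animals (median 391), with a log2 fold change of -0.21 ± 0.06 (edgeR adjusted p = 0.197), and without WT female 1 it was called (-0.25, adjusted p = 0.0460). *Gabra4* ranged from 171 to 228 CPM in WT and from 160 to 208 CPM in Het animals, with a log2 fold change of -0.18 ± 0.07 (edgeR adjusted p = 0.443). The fold changes of the other members lay between -0.10 and 0.02.

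**Figure D3:**
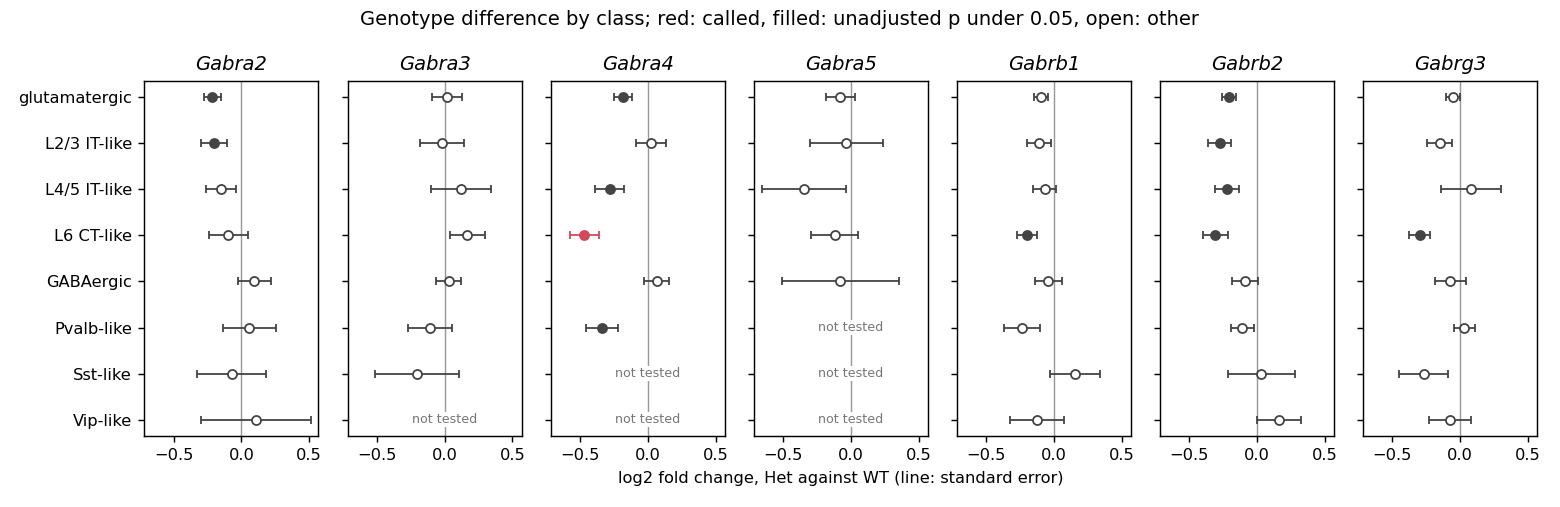
Log2 fold change of Het against WT (x axis, lines for the standard error) of the 7 subunit genes in 8 tested classes (y axis), with the 1 called value in red, values with an unadjusted p under 0.05 filled and the rest open. *Gabrb2* lies left of 0 in the glutamatergic row and in the 3 glutamatergic subclasses tested, from -0.31 in L6 CT-like to -0.21 in glutamatergic nuclei, and 6 gene and class pairs could not be tested.

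The upper layers gave *Gabrb2* values of the same sign. In L2/3 IT-like nuclei *Gabrb2* ranged from 524 to 628 CPM in WT (median 574) and from 414 to 510 CPM in Het animals (median 499). Here again all Het animals were below all WT animals, which held for 0.112% of the 5370 genes tested. The log2 fold change was -0.28 ± 0.08 (edgeR adjusted p = 0.203), while DESeq2 gave -0.27 with an adjusted p of 0.0388. edgeR called 0.0559% of genes in this class and no member, and 2 of 7 members and 8.73% of genes had an unadjusted p under 0.05. In L4/5 IT-like nuclei it called 0.0199% of 5014 genes and no member, and 2 of 7 members and 7.12% of genes had such a p. No member had all Het animals below all WT animals there, as 0.120% of genes did. *Gabrb2* had a log2 fold change there of -0.22 ± 0.09 and ranged from 623 to 822 CPM in WT and from 556 to 676 CPM in Het animals (edgeR adjusted p = 0.550). L2/3, L4/5 and L6 nuclei are parts of the glutamatergic class and come from the same animals, so these values do not add up as separate evidence. Sst-like and Vip-like nuclei, which were fewer, were tested for genotype, whereas L5 NP-like nuclei, with 28 to 75 per animal, were not. *Gabrb2* was not lower in Het animals there, with 325 to 616 CPM in WT (median 471) and 450.0 to 581 CPM in Het animals (median 560.2), and 1 of 6 Het animals was below the WT median. *Gabra4* had 214 ± 23.2 CPM in WT and 176 ± 54.2 CPM in Het L5 NP-like nuclei, and *Gabrb1* 1392 ± 245 CPM and 1116 ± 76.3 CPM (SD, n = 6), and the groups overlapped for all 7 members.

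The lower *Gabra4* level of L6 CT-like nuclei was set against the other layers. In L2/3 IT-like nuclei it had 225 ± 25.7 CPM in WT and 231 ± 33.2 CPM in Het animals (SD, n = 6), and its log2 fold change was 0.02 with an edgeR adjusted p of 0.982. In L4/5 IT-like nuclei it had 239 ± 28.1 CPM and 203 ± 20.5 CPM, with a log2 fold change of -0.28 ± 0.11 (edgeR adjusted p = 0.541). The genotype effect in L6 CT-like minus that in L2/3 IT-like nuclei was -0.50 ± 0.13 for *Gabra4* (edgeR adjusted p = 0.169), so a difference between these classes was not shown. In that test 0.0678% of 7370 genes and no member were called. The same difference against L4/5 IT-like nuclei was -0.18 ± 0.14 (adjusted p = 0.984), with 0.0155% of 6442 genes and no member called. *Gabra2* had one further value with an unadjusted p under 0.05, in L2/3 IT-like nuclei, where the log2 fold change was -0.20 ± 0.10 (edgeR adjusted p = 0.565).

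**Figure D4:**
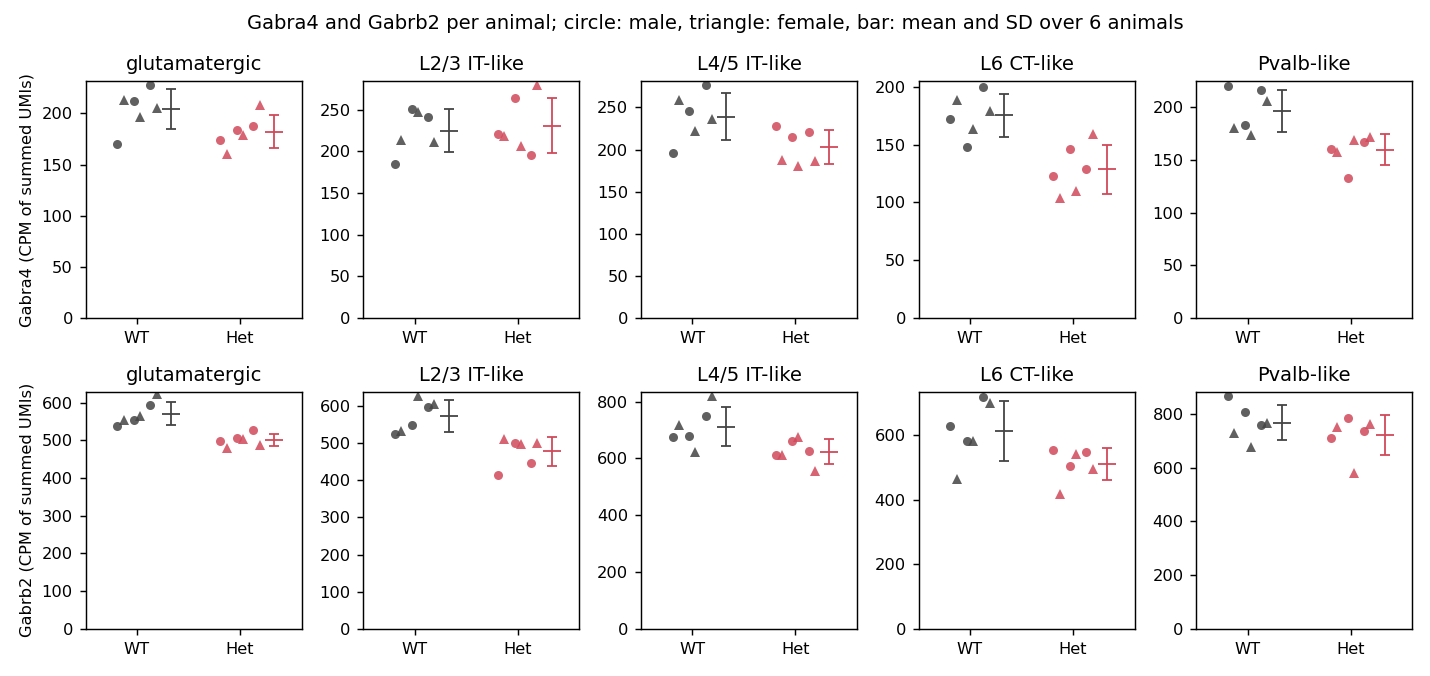
CPM of *Gabra4* (upper row) and *Gabrb2* (lower row) in 5 classes, each point one animal (circles for males, triangles for females), with the mean and SD over 6 animals. The Het animals lie below all WT animals for *Gabrb2* in glutamatergic and L2/3 IT-like nuclei and for *Gabra4* in Pvalb-like nuclei, and the groups overlap for *Gabra4* in L2/3 IT-like nuclei.

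In GABAergic nuclei no member was called for genotype, against 0.00968% of 10330 genes, and the 7 fold changes lay between -0.09 and 0.09 on the log2 scale. None had an unadjusted p under 0.05, as 4.99% of genes did, and none had all Het animals below all WT animals, as 0.0968% did. MSN-like nuclei made up 6.88% ± 2.73 of GABAergic nuclei in WT and 11.2% ± 2.70 in Het animals (SD, n = 6). The summed striatal list ran from 1474 to 1701 CPM in WT and from 1712 to 2163 CPM in Het animals without overlap, and none of its 7 markers was at 0. This list was highest in MSN-like nuclei (5377 CPM) but also stood at 1902 CPM in Vip-like and 1382 CPM in glutamatergic nuclei. Its mean was also higher in Het than in WT glutamatergic nuclei (1460 and 1268 CPM), where the groups overlapped. With classes by cluster 244 nuclei were MSN-like, against 522. *Gabra2* and *Gabra4* are higher in MSN-like than in most GABAergic nuclei, and the part of the MSN-like share in their values was not tested by class. MSN-like and Lamp5-like nuclei were not tested for genotype. In MSN-like nuclei *Gabra2* had 425 ± 59.3 CPM in WT and 515 ± 39.5 CPM in Het animals, and *Gabra4* 271 ± 78.7 CPM and 324 ± 25.0 CPM (SD, n = 6), so that both means were higher in Het animals, unlike in all glutamatergic nuclei. In Lamp5-like nuclei *Gabrb2* had 1585 ± 293 CPM in WT and 1587 ± 208 CPM in Het animals, and *Gabrg3* 2949 ± 763 CPM and 2928 ± 656 CPM. The groups overlapped for all 7 members in both classes. Among the 2466 GABAergic nuclei with fewer than 4 UMIs of that list edgeR called 0 of 7225 genes, with 234 at an unadjusted p under 0.05, so nothing about the members follows from that fit. The genotype effect in glutamatergic minus that in GABAergic nuclei was -0.24 ± 0.10 for *Gabra4*, -0.29 ± 0.14 for *Gabra2* and -0.12 ± 0.09 for *Gabrb2*, and no gene of 12010 passed that edgeR test, where 554 had an unadjusted p under 0.05.

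In Pvalb-like nuclei no member was called, and the groups separated fully for *Gabra4* alone among the members. *Gabra4* ranged from 173 to 220.1 CPM in WT animals (median 194) and from 132 to 172 CPM in Het animals (median 164), with every Het animal below every WT animal, which held for 0.0887% of the 4511 genes tested. The log2 fold change was -0.34 ± 0.12 (edgeR adjusted p = 0.767). edgeR called 0% of genes in this class, with 233 (5.17%) at an unadjusted p under 0.05, 1 of the 6 members tested among them, and DESeq2 called none. Sst-like and Vip-like nuclei were too few for firm statements. WT female 1 had under 10 Sst-like and WT male 1 under 10 Vip-like nuclei, so that 5 WT and 6 Het animals were compared in each. No gene of 2034 and of 1361 was called there, with 118 (5.80%) and 78 (5.73%) at an unadjusted p under 0.05, none of them a member, and DESeq2 called none either. Full separation with Het below WT held for 0.0983% and 0.220% of the genes and for no member. The 5 members tested in Sst-like nuclei had fold changes between -0.27 and 0.16, and the 4 tested in Vip-like nuclei between -0.13 and 0.16. *Gabra5* was not tested in Pvalb-like, Sst-like or Vip-like nuclei, *Gabra4* not in Sst-like or Vip-like nuclei and *Gabra3* not in Vip-like nuclei, since their counts were under the minimum.

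No member passed the test of sex by genotype. In L6 CT-like nuclei the log2 fold change in males minus that in females ranged from -0.14 ± 0.16 for *Gabrg3* to 0.23 ± 0.34 for *Gabra5*, and in glutamatergic nuclei from -0.33 ± 0.21 for *Gabra3* to 0.06 ± 0.11 for *Gabrb2*. None of 7506 and of 14080 genes was called by edgeR for this interaction, with 384 and 813 at an unadjusted p under 0.05.

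The other genes of GABA signalling were read as 3 lists. Of the 12 other subunits 3 were tested in L6 CT-like nuclei and none was called. Their log2 fold changes ran from -0.36 to 0.04 with a median of -0.22, which for 3 genes says little about the family. Of these 3, 1 had an unadjusted p under 0.05, with a negative fold change. Of the 17 genes of the inhibitory postsynapse and receptor trafficking 14 were tested in L6 CT-like nuclei and none was called, with a median of 0.05. Of these 14, 2 had an unadjusted p under 0.05, both with negative fold changes, against 9.51% of all genes. Of the 6 genes of the GABA-B receptor, GABA uptake and chloride transport 5 were tested and none was called, and *Gabbr2*, a subunit of the GABA-B receptor, had the largest value at 0.31 ± 0.08 (edgeR adjusted p = 0.0660). *Gabbr2* is named here after its values were seen. No gene of the 3 lists was called by edgeR in any of the 8 tested classes.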

How the data were processed

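Single nuclei of 12 cortices were sequenced with a Scale Biosciences kit. The authors mapped the reads to mm10 with the ScaleRna pipeline and deposited unnormalized expected counts of UMIs per gene and nucleus, in which a UMI that fits several genes is divided among them, so that 92.6% of entries were whole numbers. The labels list Seurat 4.3.0 and DESeq2 1.38.3 among the tools. The strand setting of the counting is not given in the sources used here. The deposited barcodes are fewer than the nuclei the study states.

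Nuclei with 800 to 6000 UMIs, 300 to 3000 genes, a log-scale gene to UMI ratio over 0.9 and at most 1% mitochondrial counts were kept (34860 of 78743), and the 1748 with the highest scanpy doublet scores, the top 5% of each library, were removed. The upper limit on UMIs removed many large nuclei, and an alternative kept them, with 48593 glutamatergic nuclei against 15999. Classes were set by the UMIs of marker lists, and the study's own cell annotation was not used here, so classes may differ from the study's clusters. Counts were summed per animal and class and rounded to whole numbers. In each class edgeR 4.0.16 (R 4.3.3; TMM scaling, filterByExpr, robust quasi-likelihood test) compared Het with WT by genotype only, with Benjamini-Hochberg adjustment over all genes tested, as did DESeq2 1.42.0 as an alternative. Calls took an adjusted p below 0.05 and a log2 fold change beyond 0.2 in either direction. Between classes the animal was a block and the minimum was 2-fold. The fits are TMM-scaled, so fold changes can differ slightly from ratios of the CPM. Levels rest on 2545 UMIs of *Gabra5* to 61886 of *Gabrb1* in glutamatergic nuclei, and intervals would cover counting error only. The p-values measure the spread between animals, whose litters are not labelled. The scripts were tested on simulated data. There edgeR called 45% of genes with a set log2 change of 0.5 in L6 CT-like, 49% in L2/3 IT-like and 37.9% in GABAergic nuclei. A member that was not called is therefore not shown to be unchanged.

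Values are given for the 7 members in every class, for all members in L6 CT-like nuclei and elsewhere for those with an unadjusted p under 0.05, and for listed pathway genes that were called. Some genes of the lists are not reported here. Similar genes were the 3 with the highest Pearson correlation of mean log2(CPM + 1) over 13 classes, among genes with at least 20 CPM in a class. The members, the lists and the tests were chosen with earlier results of these data known. Alternatives changed the test, the filter on low counts, the limits on nuclei, doublet removal, the class margin and the way of defining classes (clusters), added sex or the replicate number as a term, and left out each animal. Fits within each sex and without nuclei holding striatal UMIs were added after seeing the data.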

Additional observations from a re-analysis of the deposited data

Results flagged for a closer look

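In 9 of 112 groups of 5 or 6 animals the highest or lowest animal stood apart from the rest by more than Dixon's 95% limit (0.625 of the range for 6 animals, higher for 5), where chance gives about 1 in 20.

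The first of these concern few UMIs. *Gabra5* was at 5.61 CPM (2 UMIs) in L4/5 IT-like nuclei of WT male 1, against 24.0 to 33.2 CPM in the other WT animals, and at 4.86 CPM (1 UMI) in Pvalb-like nuclei of WT female 1, against 24.9 to 32.0 CPM. In Vip-like nuclei *Gabra5* was at 126 CPM (8 UMIs) in Het female 2, against 0 to 32.8 CPM, and *Gabra4* at 148 CPM (11 UMIs) in Het male 3, against 33.7 to 73.9 CPM. *Gabra3* was at 73.5 CPM (34 UMIs) in L4/5 IT-like nuclei of Het female 3, against 32.8 to 46.4 CPM.

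The others rest on more UMIs. *Gabra5* was at 83.8 CPM (58 UMIs) in L6 CT-like nuclei of Het female 2, against 41.8 to 56.1 CPM in the other Het animals. In Pvalb-like nuclei *Gabra4* was at 132 CPM (61 UMIs) in Het male 2, against 157 to 172 CPM, and *Gabrb2* at 578 CPM (158 UMIs) in Het female 2, against 710.2 to 786 CPM. *Gabrg3* was at 1364 CPM (2739 UMIs) in GABAergic nuclei of WT male 2, against 1930.0 to 2200.1 CPM in the other WT animals.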

How the results depend on the processing

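Of the single members, 138 values under other settings and 169 with 1 animal left out kept their direction and side of the threshold. Under other settings 5 gained a call, 5 lost it and 2 were reversed, and with 1 animal left out 4, 6 and 1 did. Only *Gabra4* in L6 CT-like nuclei was called in the main fit, so for all other values keeping the side means staying uncalled. The reversed values were those of *Gabra2* in L6 CT-like nuclei with a stricter class margin (0.0295) and of *Gabra5* there within males (0.0052) and without WT female 3 (0.0576, in a range of -0.27 to 0.0576). *Gabrb2* in L6 CT-like nuclei was called with large nuclei included (adjusted p = 0.0103), with classes by cluster (0.0133) and without WT female 1 (0.0144), and *Gabrg3* by DESeq2 (0.0155), without WT male 1 (0.0350) and without WT female 1 (0.0209). DESeq2 centred all genes tested at -0.13 in L2/3 IT-like and -0.11 in L6 CT-like nuclei, low-count genes included. The cause of these changes was not tested.

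Members called in L6 CT-like nuclei numbered 1, and 2 with DESeq2, 0 with doublets kept, 0 with a stricter margin, 2 by cluster, 0 within males, 0 within females and 0 to 3 with 1 animal left out. In glutamatergic nuclei they numbered 0, with DESeq2 1, and 0 to 1 with 1 animal left out, and in L2/3 IT-like nuclei 0, with DESeq2 1.

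The number of all genes called in glutamatergic nuclei was 24, against 64 with DESeq2, 150 without a filter on low counts, 45 with large nuclei, 13 with a stricter margin, 4 within males, 10 within females and 7 to 45 with 1 animal left out. In L2/3 IT-like nuclei it was 3, against 27 with DESeq2, 28 without a filter, 17 with large nuclei, 1 with a stricter margin, 5 by cluster, 16 within females and 0 to 21 with 1 animal left out. In L4/5 IT-like nuclei it was 1, against 10 with DESeq2, 5 without a filter, 4 with large nuclei, 3 with a stricter margin, 3 by cluster, 23 within males, 2 within females and 1 to 7 with 1 animal left out. In L6 CT-like nuclei it was 24, against 47 with DESeq2, 53 without a filter, 88 with large nuclei, 14 with a stricter margin, 59 by cluster, 1 within males, 0 within females and 10 to 51 with 1 animal left out. In GABAergic nuclei it was 1, against 7 with DESeq2, 47 without a filter, 11 with large nuclei, 0 with a stricter margin, 0 by cluster, 0 within either sex, 0 without striatal UMIs and 0 to 13 with 1 animal left out. In Pvalb-like nuclei it was 0, against 2 without a filter, 1 with a stricter margin and 0 to 1 with 1 animal left out, in Sst-like nuclei 0, against 4 without a filter and 3 by cluster, and in Vip-like nuclei 0, against 2 by cluster. At a minimum of 1.5-fold the class comparisons called 2687, 1261 and 563 genes. The *Gabrb1* level in astrocyte nuclei was 2342 CPM with large nuclei included.

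WT and Het animals of the same sex and number had correlated deviations of 0.0034 to 0.139 in L6 CT-like and -0.086 to 0.186 in glutamatergic nuclei. Animals of unlike number were not compared in this way, so whether the numbers pair animals cannot be told from these values. With the replicate block 10 genes were called in glutamatergic and 0 in GABAergic nuclei, and *Gabra4* in L6 CT-like nuclei had a log2 fold change of -0.46 (adjusted p = 0.0412). Depth limits *Gabra5* most, which was under the minimum count in 3 of the 8 tested classes, against 2 for *Gabra4* and 1 for *Gabra3*.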

Other observations

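*Gabra5* varied more between animals in GABAergic nuclei than the genotypes differed. It was at 28.6 to 49.0 CPM in 7 animals (4 Het, 3 WT) and at 76.5 to 112.5 CPM in the other 5 (2 Het, 3 WT), with no value in between. The 3 animals with the most *Gabra5* (Het female 2, Het male 3 and WT male 2) had the lowest Pvalb-like shares of GABAergic nuclei of all 12 animals, 11.9%, 15.4% and 12.9%, against 17.1% to 25.2% in the rest. GABAergic nuclei made up 20.9%, 21.4% and 23.4% of their nuclei, against 14.2% to 16.8% in the rest. Of 1271 *Gabra5* UMIs in GABAergic nuclei, 155 were in Lamp5-like, 89 in Pvalb-like, 41 in MSN-like, 23 in Vip-like and 16 in Sst-like nuclei. Most thus lay in GABAergic nuclei of no named class. Lamp5-like nuclei, which held the highest *Gabra5* level, made up 3.61% to 8.88% of GABAergic nuclei over all 12 animals. The part of these shares in the *Gabra5* values was not tested.

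The class with the highest level changed with the way classes were set for 3 members. With classes by cluster *Gabra2* was highest in MSN-like nuclei (638 CPM, against 615 CPM in L2/3 IT-like nuclei), *Gabra3* in Sst-like nuclei (122 CPM) and *Gabra4* in L2/3 IT-like nuclei (261 CPM, against 252 CPM in MSN-like nuclei). *Gabra5*, *Gabrb2* and *Gabrg3* were highest in Lamp5-like nuclei and *Gabrb1* in astrocyte nuclei also by cluster and with large nuclei included.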
